A study of Mus musculus with 12 samples.

Results

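The genes of glutathione, thioredoxin and antioxidant defence were examined across 12 Ras-driven mouse tumors that carried an intact Vnn1, a catalytically deficient Vnn1 or no Vnn1. The set held 43 genes listed by symbol from their known roles, and 41 of them had a probeset naming that gene alone. The list was chosen with earlier results of these data known, so its shares beside those of all genes are descriptive only. All 41 passed the filter on low values and were tested together with the other genes, 16573 in all. Prdx5 and Prdx6 were not named by a probeset in the annotation used, and their expression was not analysed here.

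The tumors were grown from the J2A line, aortic myofibroblasts of mice lacking p16, p19 and Vnn1 on a C57BL/6 background, so every group shares those deletions. VR tumors came from cells transduced with intact Vnn1 and human H-RasV12, VdR tumors from cells with the catalytically deficient Vnn1 and the same Ras, and R tumors from cells with Ras and a mock insert. A retroviral vector drove the Vnn1 insert and the Ras fused to green fluorescent protein. Cells were grafted under the skin of nude mice on a normal diet, and 4 tumors of each group, were hybridised to 1 Affymetrix mouse Gene 1.0 ST array each. Harvest was between weeks 2 and 3 in the deposited text and at day 21 in the methods. All 3 groups derive from 1 cell line, and no source used here says that the tumors of a group came from separate transductions, so the p-values measure the spread between these tumors. Nude mice lack mature T cells but keep other host cells, whose RNA is in a whole tumor. The sources differ on the RNA, since the deposited extraction text speaks of sorted subsets and the study's methods of whole tumors.

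Vnn1 averaged 10.87 ± 0.34 on the log2 scale in VR tumors, 11.56 ± 0.16 in VdR tumors and 5.70 ± 0.13 in R tumors (SD, n = 4 each). R arrays matched their label, and the probeset cannot tell intact from deficient Vnn1. Fibroblast markers, led by Vim and Fn1, had mean levels of 11.79 to 11.99 in VR, 11.56 to 11.80 in VdR and 11.39 to 11.74 in R tumors. Macrophage markers, led by Lyz2 and C1qb, averaged 10.17 to 10.35 in VR and 10.26 to 10.55 in VdR tumors, against 9.20 to 9.50 in R tumors. Against R, 15 of those 18 genes were higher in VR and 16 in VdR tumors, and by limma none passed between VR and VdR tumors, where 1 was higher and 5 lower at an unadjusted p under 0.05. Skeletal muscle markers, led by Acta1 and Tnnt3, averaged 7.94 to 8.80 in VR tumor 2, VdR tumors 2 and 4, and R tumors 2 and 5, against 6.44 to 6.57 in the other 7. Adipocyte markers, led by Fabp4 and Lipe, averaged 7.40 in VR tumor 1 and 7.28 and 7.30 in VdR tumors 1 and 2, against 6.48 to 6.68 in the other 9. In bulk RNA, fewer cells of a type and less RNA per cell cannot be told apart.

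Vnn1 is a membrane pantetheinase that splits pantetheine into pantothenate, the precursor of coenzyme A, and the aminothiol cysteamine. Glutathione, the main small thiol of cells, is made from glutamate, cysteine and glycine, and is used by peroxidases, transferases and glutaredoxins. The thioredoxin system reduces protein disulfides and peroxiredoxins in parallel with it. The transcription factor Nrf2, encoded by Nfe2l2 and held in check by Keap1, drives many genes of both systems when thiols are oxidised. The comparison of VR with VdR tumors asks what differs between the enzyme that makes cysteamine and the one that does not. The study reports that VR grafts grew slowly, while R and VdR grafts formed aggressive tumors. Enzyme activity therefore cannot be told apart here from tumor growth, or from the higher Vnn1 level of VdR tumors. VR and VdR tumors were each also set against R tumors.

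Against R tumors, VR tumors had 7 members higher and 11 lower, and 23 did not pass (limma over all 12 arrays, Benjamini-Hochberg adjusted p under 0.05). Over all genes tested, 13.6% were higher and 7.48% lower in this comparison, whereas 17.1% and 26.8% of the members were, and in either direction 43.9% of members passed beside 21.1% of all genes. VdR tumors had 5 members higher and 6 lower against R, where 6.58% of all genes were higher, 2.81% lower and 9.38% either, beside 26.8% of the members. Leaving out R tumor 1, R tumor 4 or VdR tumor 1 left 2 members lower, leaving out VdR tumor 2 or 4 left 3, and leaving out R tumor 2 gave 8. Between VR and VdR tumors 1 member, Sod3, was higher and 3, Gpx7, Glrx and Mt1, were lower in VR, where 1.77% of all genes were higher and 1.67% lower (293 and 277 genes, or 255 and 152 after centring each array on its median). In either direction 9.76% of the members passed between VR and VdR, beside 3.44% of all genes, and none did without VR tumor 2 or VR tumor 4. The members' median log2 fold change was -0.08 for VR against R, -0.0036 for VdR against R and -0.05 for VR against VdR, beside -0.01, 0.0038 and -0.02 over all genes. The 2 comparisons with R share the R tumors, and all 3 share a group with another.

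**Figure D1:**
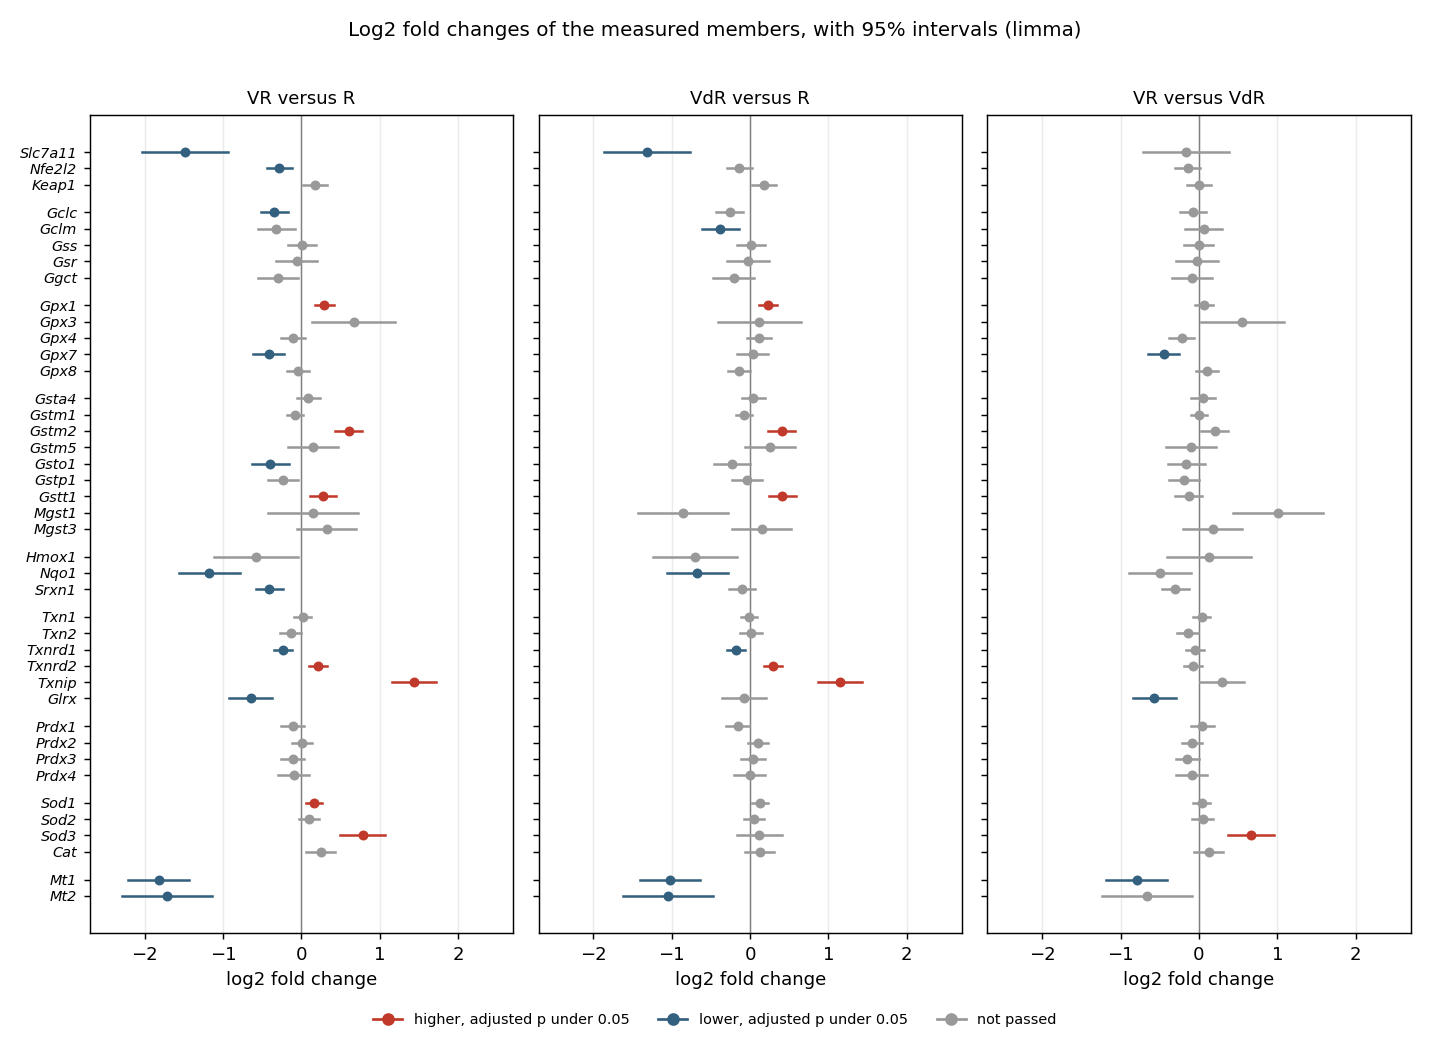
Log2 fold change of each of the 41 measured members in VR versus R, VdR versus R and VR versus VdR, with 95% intervals from limma, grouped by role. Red and blue points passed an adjusted p under 0.05 as higher or lower, and grey points did not pass. In VR versus R the points furthest from 0 are Txnip at 1.44 and Mt1, Mt2 and Slc7a11 between -1.82 and -1.49.

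Slc7a11, which encodes the exchanger that brings in cystine for glutathione, was lower in both Vnn1 groups. Its log2 levels were 7.49, 7.65, 7.82 and 7.34 in VR tumors 1, 2, 4 and 5, and 7.67, 7.80, 7.69 and 7.82 in VdR tumors, against 9.18, 8.31, 9.94 and 8.82 in R tumors. Every tumor with either form of Vnn1 lay below every R tumor, and the R tumors spread more widely than the others. The log2 fold change was -1.49 ± 0.25 (SE, adjusted p = 0.0018) in VR and -1.32 ± 0.25 (adjusted p = 0.0065) in VdR against R tumors, so that the level in VR tumors fell by 64.3%. Between VR and VdR tumors it was -0.17 with a 95% interval of -0.72 to 0.38, and the groups overlapped.

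Nfe2l2, which encodes Nrf2, had 11.77, 11.73, 11.67 and 11.79 in VR tumors and 11.85, 11.81, 11.95 and 11.93 in VdR tumors, against 12.06, 11.79, 12.15 and 12.08 in R tumors. The VR tumors lay below both other groups without overlap. The difference from R was -0.28 ± 0.07 (adjusted p = 0.017), and it missed the threshold without VR tumor 4 (-0.26, adjusted p = 0.0519) or R tumor 4 (-0.24, adjusted p = 0.0543). In VdR tumors it was -0.14 against R, and the VR minus VdR difference was -0.15, neither past the threshold (adjusted p = 0.30 and 0.31). Keap1, the adaptor that targets Nrf2 for degradation, averaged 8.46 ± 0.09 in VR and 8.46 ± 0.13 in VdR tumors, against 8.28 ± 0.05 in R tumors, with adjusted p = 0.093 and 0.14 against R.

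The RefSeq window before the Nfe2l2 start (mouse GRCm38.p6, chr2:75704664-75704913, minus strand) is shown because it holds the core of the antioxidant response element to which Nrf2 binds. The core was searched as TGACNNNGC on both strands over 250 bases, and its 1 match, in capitals, begins 240 bases before the start.
Nfe2l2: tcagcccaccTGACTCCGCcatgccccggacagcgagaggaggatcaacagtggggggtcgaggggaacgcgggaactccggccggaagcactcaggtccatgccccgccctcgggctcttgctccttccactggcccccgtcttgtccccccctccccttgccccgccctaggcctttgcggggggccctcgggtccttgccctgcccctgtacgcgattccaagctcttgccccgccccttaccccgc
Of 13061 tested genes with such a window, 13.2% held this core, as did 9 of the 37 members with one. The 37 include Prdx5, which has a window but was not tested for expression. The 9 were Gclm, Ggct, Gstm5, Mgst1, Mt2, Nfe2l2, Prdx1, Sod1 and Txnrd1.

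Glutamate-cysteine ligase, the rate-limiting step of glutathione synthesis, had lower means of both subunits in each comparison with R, and 1 of them passed in each. Gclc, the catalytic subunit, had 9.32, 9.50, 9.39 and 9.32 in VR tumors and 9.32, 9.49, 9.42 and 9.63 in VdR tumors, against 9.80, 9.55, 9.77 and 9.77 in R tumors. VR tumors did not overlap R tumors, and the difference of -0.34 ± 0.08 passed the test (adjusted p = 0.0089), while that of VdR, -0.26, had an adjusted p of 0.054. Gclm, the modifier subunit, had 10.86, 10.53, 10.69 and 10.90 in VR tumors and 10.76, 10.71, 10.52 and 10.75 in VdR tumors, against 11.24, 10.84, 11.24 and 10.94 in R tumors. Here it was VdR that passed (-0.38 ± 0.11, adjusted p = 0.045) and VR that did not (-0.32, adjusted p = 0.054). The VR difference in Gclm passed with a stricter filter, cyclic loess, array weights, trend and robust moderation, or the replicate number as a block. It also passed with the muscle or adipocyte score as a covariate. The same held without VR tumor 5, R tumor 2, R tumor 5 or the 5 tumors of high muscle markers. The VdR call for Gclm was lost on leaving out any 1 of VdR tumors 1, 2, 4 or 5 or R tumors 1 or 4, with log2 fold changes from -0.40 to -0.32 and adjusted p from 0.0635 to 0.133. Between VR and VdR tumors the differences were -0.08 in Gclc (95% interval -0.25 to 0.09) and 0.06 in Gclm (-0.17 to 0.30). These RNA levels do not measure glutathione. By NMR the study reports more glutathione in VR than in R tumors of this line, with a profile like that of R in VdR tumors.

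The remaining enzymes of synthesis and recycling did not pass in any comparison. Gss, glutathione synthase, averaged 8.52 in VR, 8.53 in VdR and 8.52 in R tumors. Gsr, the reductase that regenerates glutathione from its disulfide, averaged 10.61, 10.64 and 10.67 in the same order, with R tumor 5 apart at 11.11. Ggct, which breaks down gamma-glutamyl dipeptides, averaged 8.57 ± 0.14 in VR and 8.65 ± 0.23 in VdR tumors, against 8.86 ± 0.18 in R tumors, with adjusted p = 0.095 and 0.32.

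**Figure D2:**
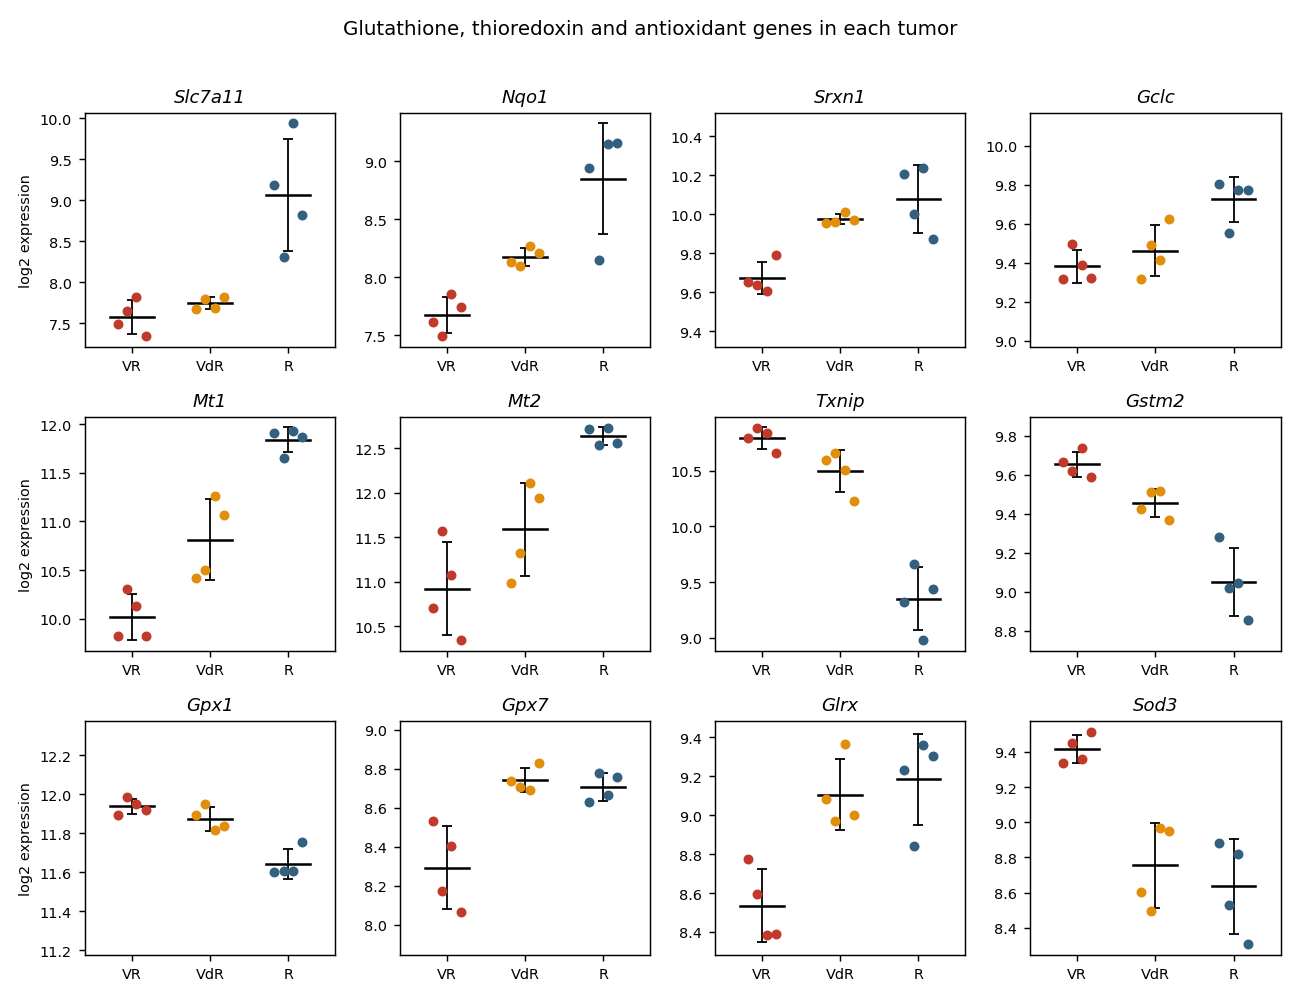
Log2 expression in each tumor (points) of 12 members, in VR, VdR and R tumors (4 each), with the mean as a line and the SD as bars, each panel on its own axis. Mt1 and Nqo1 step down from R to VdR to VR means, Slc7a11 and Txnip place VR and VdR together away from R, and Gpx7, Glrx and Sod3 place VR away from both VdR and R.

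Of the 3 inducible Nrf2 targets, 2 passed as lower in VR against R (66.7%, beside 7.48% of all genes). Nqo1, a quinone reductase, had 7.62, 7.49, 7.85 and 7.74 in VR tumors and 8.13, 8.10, 8.27 and 8.21 in VdR tumors, against 8.94, 8.15, 9.15 and 9.15 in R tumors. VR tumors lay below all others, whereas VdR tumors overlapped R through R tumor 2. The log2 fold change was -1.17 ± 0.18 in VR (adjusted p = 0.0011) and -0.67 ± 0.18 in VdR tumors (adjusted p = 0.036) against R. The second call was lost on leaving out any 1 of VdR tumors 1, 2, 4 or 5 or R tumors 1, 4 or 5, at -0.70 to -0.57 with adjusted p from 0.0554 to 0.111. VR minus VdR was -0.50, an adjusted p of 0.15.

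Srxn1, sulfiredoxin, which repairs over-oxidised peroxiredoxins, had 9.65, 9.64, 9.61 and 9.79 in VR tumors and 9.96, 9.96, 10.01 and 9.97 in VdR tumors, against 10.21, 10.00, 10.24 and 9.87 in R tumors. All VR tumors were below all VdR and all R tumors. It fell by 0.41 on the log2 scale in VR against R tumors (SE 0.08, adjusted p = 0.0034), and the VR minus VdR difference of -0.30 just missed the threshold (adjusted p = 0.053). VdR differed from R by -0.10 (95% interval -0.27 to 0.06). Hmox1, heme oxygenase, averaged 9.74 ± 0.11 in VR and 9.61 ± 0.26 in VdR tumors, against 10.32 ± 0.63 in R tumors. Its R tumors ranged over 9.53 to 10.95, and neither difference passed (adjusted p = 0.11 and 0.098). Both differences in Hmox1 passed without R tumor 5, its lowest R tumor, with array weights, or without the 5 tumors of high muscle markers.

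The metallothioneins, cysteine-rich proteins that bind zinc and copper and scavenge oxidants, had the lowest log2 fold changes of the set in VR tumors. Mt1 had 9.82, 10.30, 10.13 and 9.82 in VR tumors and 10.42, 10.50, 11.27 and 11.07 in VdR tumors, against 11.91, 11.65, 11.93 and 11.87 in R tumors. The 3 groups did not overlap, with VR lowest and R highest. The log2 fold change was -1.82 ± 0.18 for VR against R (adjusted p = 8.9e-05), -1.03 ± 0.18 for VdR against R (adjusted p = 0.0036) and -0.79 ± 0.18 for VR against VdR (adjusted p = 0.034). Mt1 was the only member that passed in all 3 comparisons. The call between VR and VdR was lost on leaving out any 1 of VR tumors 1, 2, 4 or 5 or VdR tumors 4 or 5, at -0.89 to -0.64 with adjusted p from 0.0504 to 0.0923. It was also lost with the muscle score as a covariate (-0.75, adjusted p = 0.056) and in a fit of those 2 groups alone (-0.79, adjusted p = 0.065).

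Mt2 had 10.70, 11.57, 11.07 and 10.34 in VR tumors and 10.99, 11.32, 12.11 and 11.94 in VdR tumors, against 12.72, 12.54, 12.73 and 12.57 in R tumors. Each Vnn1 group lay below R, while VR and VdR overlapped. It fell by 1.72 in VR (adjusted p = 0.0011) and by 1.05 in VdR tumors (adjusted p = 0.027) on the log2 scale against R, and by an adjusted p of 0.19 the VR minus VdR difference of -0.67 (95% interval -1.24 to -0.10) did not pass. The VdR call for Mt2 was lost without VdR tumor 1 or 2 or R tumor 1 or 4, at -1.02 to -0.85 with adjusted p from 0.0696 to 0.0846, and also under trend and robust moderation (-1.05, adjusted p = 0.053) and without the 5 tumors of high muscle markers (-1.26, adjusted p = 0.059). In both genes VdR tumors 1 and 2 lay nearer to VR tumors, and VdR tumors 4 and 5 nearer to R tumors. The same VdR tumors 1 and 2 had high adipocyte markers. With that score as a covariate Mt1 still passed in all 3 comparisons, while Mt2 in VdR differed from R by -0.81 (adjusted p = 0.061).

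The window before the Mt2 start (RefSeq, GRCm38.p6, chr8:94172368-94172617, plus strand) is shown for the metal response element core, TGCACNC or TGCGCNC, through which zinc induces metallothioneins. Its 3 matches on either strand, in capitals, begin 223, 128 and 50 bases before the start.
Mt2: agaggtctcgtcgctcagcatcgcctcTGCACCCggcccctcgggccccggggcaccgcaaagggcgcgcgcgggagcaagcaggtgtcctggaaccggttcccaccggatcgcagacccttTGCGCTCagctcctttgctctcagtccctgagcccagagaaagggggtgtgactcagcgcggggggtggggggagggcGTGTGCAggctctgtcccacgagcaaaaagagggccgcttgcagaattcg
At least 1 match was found in 31.8% of the tested genes with a window and at least 3 in 2.20%. Among the 37 members with a window 12 had at least 1 match.

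The thioredoxin system changed in both directions. Txnip, the thioredoxin-interacting protein, which binds and inhibits reduced thioredoxin and restrains glucose uptake, had 10.79, 10.88, 10.84 and 10.66 in VR tumors and 10.59, 10.66, 10.51 and 10.23 in VdR tumors, against 9.32, 9.66, 8.98 and 9.44 in R tumors. All 8 tumors with a form of Vnn1 were above the 4 R tumors. It rose by 1.44 ± 0.13 on the log2 scale, 2.72-fold, in VR (adjusted p = 7.8e-05) and by 1.15 ± 0.13, 2.21-fold, in VdR tumors (adjusted p = 0.00024) against R. VR minus VdR was 0.30 (95% interval 0.01 to 0.58), which did not pass (adjusted p = 0.24).

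The window before the Txnip start (RefSeq, GRCm38.p6, chr3:96557707-96557956, plus strand) is shown for its carbohydrate response element, a pair of E-box-like repeats read by glucose-sensing factors. It was searched as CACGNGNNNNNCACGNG on both strands, and the 1 match, in capitals, begins 85 bases before the start.
Txnip: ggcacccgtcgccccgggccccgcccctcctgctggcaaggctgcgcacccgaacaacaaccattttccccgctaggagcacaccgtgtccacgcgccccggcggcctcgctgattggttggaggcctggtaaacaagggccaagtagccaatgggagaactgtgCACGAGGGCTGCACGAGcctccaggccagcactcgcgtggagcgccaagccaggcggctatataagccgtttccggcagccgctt
Only 10 of the 13061 tested genes with a window (0.077%) held this element, and Txnip was the only one among the 37 members.

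The reductases that recharge thioredoxin moved in opposite directions. Txnrd1, the cytosolic form, had 9.98, 9.95, 9.94 and 10.09 in VR tumors and 10.05, 10.07, 9.99 and 10.05 in VdR tumors, against 10.30, 10.20, 10.23 and 10.16 in R tumors. Both Vnn1 groups lay below R. The differences were -0.24 ± 0.05 (adjusted p = 0.0070) and -0.18 ± 0.05 (adjusted p = 0.043), the second lost on leaving out any 1 of VdR tumors 1, 2, 4 or 5 or R tumors 1, 2 or 4, at -0.19 to -0.16 with adjusted p from 0.0634 to 0.134. Txnrd2, the mitochondrial form, averaged 7.76 ± 0.04 in VR and 7.84 ± 0.04 in VdR tumors, against 7.55 ± 0.09 in R tumors. It rose by 0.22 (adjusted p = 0.014) and by 0.29 (adjusted p = 0.0050), with no overlap with R in either. The thioredoxins themselves did not pass, with Txn1, the cytosolic form, at 13.28 to 13.45 in all 12 tumors. Txn2, the mitochondrial thioredoxin, averaged 11.14 ± 0.04 in VR, 11.29 ± 0.01 in VdR and 11.28 ± 0.13 in R tumors, with adjusted p from 0.14 to 0.95 over the 3 comparisons.

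Glrx, the cytosolic glutaredoxin that removes glutathione from proteins, was lower in VR tumors than in both other groups. It had 8.77, 8.59, 8.38 and 8.39 in VR tumors and 9.08, 8.97, 9.37 and 8.998 in VdR tumors, against 9.23, 8.84, 9.36 and 9.30 in R tumors. The highest VR tumor lay below the lowest of the other 8. It fell by 0.65 against R (SE 0.13, adjusted p = 0.0041) and by 0.57 against VdR tumors (SE 0.13, adjusted p = 0.035) on the log2 scale, while VdR differed from R by -0.08 (95% interval -0.36 to 0.20). The call against VdR was lost on leaving out any 1 of VR tumors 2, 4 or 5 or VdR tumors 1, 4 or 5, at -0.60 to -0.48 with adjusted p from 0.0646 to 0.0985.

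Among the 5 glutathione peroxidases 1 rose and 1 fell in VR against R tumors, or 40%, beside 21.1% of all genes. Gpx1, the main cytosolic form, a selenoenzyme, had 11.89, 11.99, 11.95 and 11.92 in VR tumors and 11.89, 11.95, 11.81 and 11.84 in VdR tumors, against 11.60, 11.60, 11.61 and 11.76 in R tumors. Both Vnn1 groups lay above R, by 0.30 ± 0.05 (adjusted p = 0.0025) in VR and 0.23 ± 0.05 (adjusted p = 0.017) in VdR tumors. The VdR call was lost without VdR tumor 2 (0.21, adjusted p = 0.0551), R tumor 1 (0.22, adjusted p = 0.0583) or R tumor 4 (0.22, adjusted p = 0.0524). Gpx7, an endoplasmic reticulum peroxidase with cysteine in place of selenocysteine, had 8.53, 8.17, 8.40 and 8.06 in VR tumors and 8.74, 8.71, 8.69 and 8.83 in VdR tumors, against 8.63, 8.78, 8.67 and 8.76 in R tumors. All 4 VR tumors were below the other 8.

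Gpx7 fell by 0.42 against R (adjusted p = 0.0069) and by 0.45 against VdR tumors (adjusted p = 0.025) on the log2 scale, SE 0.09 each, and VdR differed from R by 0.03 (95% interval -0.16 to 0.23). The call against VdR was lost on leaving out any 1 of VR tumors 2 or 4 or VdR tumors 1, 4 or 5, at -0.49 to -0.41 with adjusted p from 0.0516 to 0.0682. Without the 5 tumors of high skeletal muscle markers Gpx7 in VR differed from R by -0.31 (adjusted p = 0.13). The other peroxidases did not pass. Gpx3, the secreted plasma form, averaged 9.14 ± 0.35 in VR and 8.59 ± 0.37 in VdR tumors, against 8.47 ± 0.46 in R tumors, with adjusted p = 0.071 for VR against R. Gpx4, which reduces lipid peroxides and guards against ferroptosis, had 10.35 to 10.63 in VR tumors, below the 10.69 to 10.84 of VdR tumors without overlap, at -0.22 (adjusted p = 0.10), and 10.52 to 10.74 in R tumors. Gpx8, of the endoplasmic reticulum, averaged 12.23 in VR, 12.13 in VdR and 12.27 in R tumors.

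Of 9 glutathione transferases, which attach glutathione to electrophiles, 2 were higher and 1 lower in VR against R tumors. In either direction this was 33.3%, beside 21.1% of all genes. Gstm2 had 9.67, 9.62, 9.74 and 9.59 in VR tumors and 9.42, 9.51, 9.52 and 9.37 in VdR tumors, against 9.28, 9.02, 9.05 and 8.86 in R tumors. The groups did not overlap, in the order R, VdR, VR. It rose by 0.60 ± 0.08 in VR (adjusted p = 0.00045) and by 0.40 ± 0.08 in VdR tumors (adjusted p = 0.0075) against R, and the VR minus VdR difference was 0.20 with an adjusted p of 0.19. The VdR call was lost with array weights (0.26, adjusted p = 0.053) and without the 5 tumors of high muscle markers (0.23, adjusted p = 0.21). Gstt1 averaged 7.17 ± 0.18 in VR and 7.30 ± 0.07 in VdR tumors, against 6.89 ± 0.04 in R tumors, and was higher than R by 0.28 (adjusted p = 0.023) and 0.41 (adjusted p = 0.0058). The VR call was lost without VR tumor 2 (0.23, adjusted p = 0.0698), VR tumor 4 (0.23, adjusted p = 0.0703) or R tumor 4 (0.28, adjusted p = 0.0524). Without the 5 tumors of high muscle markers neither call held, at 0.20 in VR (adjusted p = 0.21) and 0.43 in VdR tumors (adjusted p = 0.070).

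Gsto1, an omega-class transferase with glutaredoxin-like thiol activity, averaged 10.83 ± 0.10 in VR and 10.99 ± 0.11 in VdR tumors, against 11.22 ± 0.24 in R tumors. VR and R overlapped at R tumor 2, and the difference of -0.39 ± 0.11 passed (adjusted p = 0.021) but not without VR tumor 2 (-0.35, adjusted p = 0.0612) or R tumor 4 (-0.39, adjusted p = 0.0524). Mgst1, a microsomal transferase and peroxidase, had 8.12, 8.92, 8.52 and 8.54 in VR tumors and 7.91, 8.20, 7.29 and 6.67 in VdR tumors, against 8.38, 8.35, 8.36 and 8.40 in R tumors. VdR tumors 4 and 5, without the high adipocyte markers of VdR tumors 1 and 2, were the lowest of the 12. VR tumors 2, 4 and 5 and the R tumors also lacked high adipocyte markers, with Mgst1 at 8.35 to 8.92. The VR minus VdR difference of 1.00 ± 0.27 had an adjusted p of 0.057, and VdR minus R, -0.85, one of 0.066. Gsta4, Gstm1, Gstm5, Gstp1 and Mgst3 passed in no comparison, with log2 fold changes between -0.23 and 0.32.

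No peroxiredoxin, the thiol peroxidases that thioredoxin recharges, passed in any comparison by limma, and at an unadjusted p under 0.05 1 of 4 was lower in VdR against R and 1 lower in VR against VdR. Prdx1 averaged 12.23 in VR, 12.19 in VdR and 12.35 in R tumors. Prdx2 averaged 12.33, 12.42 and 12.32, Prdx3 10.70, 10.85 and 10.81, and Prdx4 10.89, 10.99 and 10.99 in the same order. Their log2 fold changes lay between -0.16 and 0.10. Gpx4, Prdx1 and Prdx2 each had a second probeset, with lower means in every group, that left these calls as they were.

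Superoxide dismutases, which turn superoxide into hydrogen peroxide, passed as higher in VR against R in 2 of 3 genes, where 13.6% of all genes did. Sod3, the secreted form bound to the matrix, had 9.34, 9.45, 9.36 and 9.52 in VR tumors and 8.60, 8.50, 8.97 and 8.95 in VdR tumors, against 8.88, 8.53, 8.82 and 8.31 in R tumors. The VR tumors stood above the other 8, which overlapped each other. It rose by 0.78 ± 0.13 against R (adjusted p = 0.0019, 1.72-fold) and by 0.66 ± 0.13 against VdR tumors (adjusted p = 0.026, 1.58-fold), and VdR differed from R by 0.12 (95% interval -0.17 to 0.41). The call against VdR was lost on leaving out any 1 of VR tumors 2, 4 or 5 or VdR tumors 1 or 2, at 0.58 to 0.68 with adjusted p from 0.0504 to 0.0665.

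Sod1, the cytosolic copper-zinc form, averaged 11.35 ± 0.07 in VR and 11.32 ± 0.02 in VdR tumors, against 11.19 ± 0.03 in R tumors. Both Vnn1 groups lay above R without overlap, and the VR difference of 0.16 ± 0.05 passed (adjusted p = 0.029) while the VdR difference of 0.13 did not (adjusted p = 0.11). The VR call was lost on leaving out any 1 of VR tumors 1, 2 or 4 or R tumors 1, 2 or 4, at 0.14 to 0.17 with adjusted p from 0.0559 to 0.0876, and at 0.15 (adjusted p = 0.062) after centring each array on its median. Sod2, the mitochondrial form, averaged 10.85 in VR, 10.81 in VdR and 10.76 in R tumors. Cat, catalase, which removes hydrogen peroxide in peroxisomes, had 11.13, 11.05, 11.12 and 11.25 in VR tumors, above the R tumors at 10.89 each, by 0.25 ± 0.08 with an adjusted p of 0.057. VdR tumors spanned both, at 11.24, 10.99, 10.76 and 11.07.

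**Figure D3:**
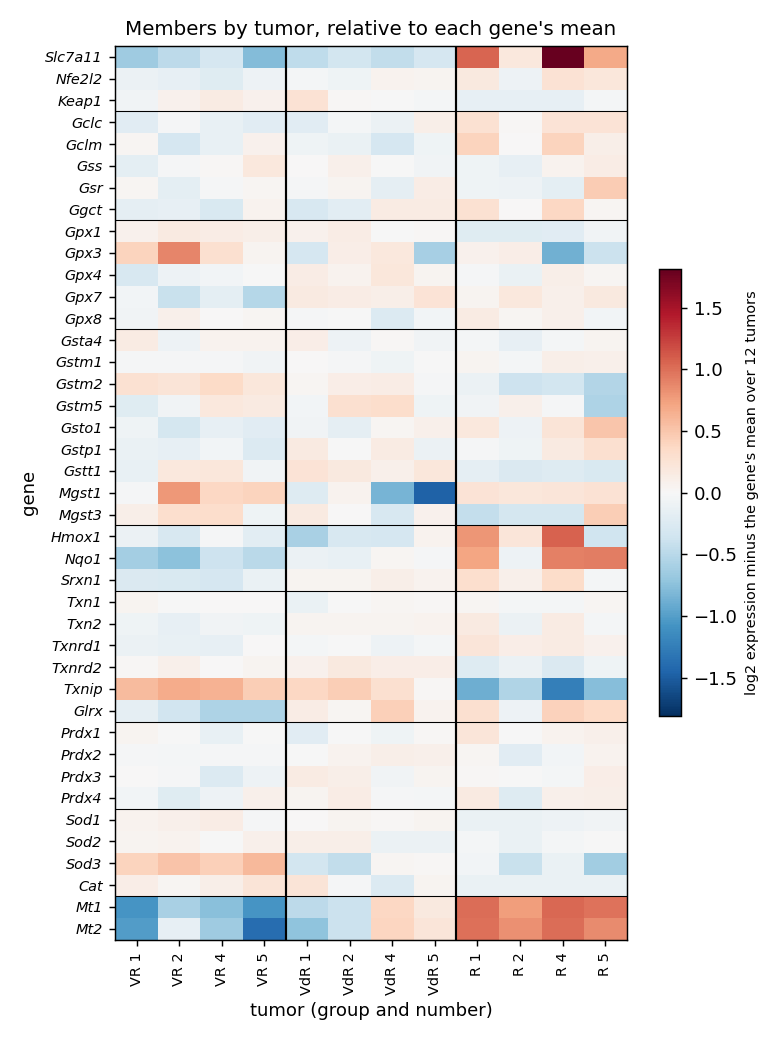
Log2 expression of the 41 measured members in each tumor, minus the gene's mean over the 12 tumors, with VR, VdR and R tumors from left to right and genes grouped by role. Slc7a11, Mt1 and Mt2 are blue in VR and red in R tumors, as is Nqo1 apart from R tumor 2, and Txnip runs the other way, while rows such as Txn1, Gstm1 and Prdx2 stay near white.

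Set by the order of the group means, VdR tumors lay between VR and R in 25 of the 41 members, with VR lowest in 15 and R lowest in 10. These were 61.0%, 36.6% and 24.4% of the members, beside 51.5%, 28.4% and 23.1% of all genes. The groups did not overlap between VR and R for 8 members higher and 10 lower in VR, where 15.3% and 10.5% of all genes, 25.8% together, did so. Between VdR and R these were 7 and 6 members, with 9.73% and 4.5% of all genes, 14.2% together. Between VR and VdR 2 members (Gstm2 and Sod3) were higher and 9 lower in VR without overlap, where 5.88% and 6.77% of all genes, 12.6% together, were. The 9 were Nfe2l2, Gpx4, Gpx7, Nqo1, Srxn1, Txn2, Glrx, Prdx2 and Mt1. No member that passed against R in both VR and VdR tumors had opposite signs in them, but the shared R tumors favour equal signs.

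The macrophage markers moved with both comparisons with R. R tumors do not overlap the others in that score, so the score and the Vnn1 groups cannot be told apart there. With the score as a covariate no member passed against R by limma in either comparison, and at an unadjusted p under 0.05 there were 4 higher and 2 lower in VR, and 3 higher and 1 lower in VdR tumors. Between VR and VdR tumors, whose scores overlap, the same fit gave Mt1 -0.75, Glrx -0.55, Gpx7 -0.43 and Sod3 0.54, with adjusted p from 0.064 to 0.090. Endothelial markers, led by Emcn and Cdh5, averaged 9.06 to 9.46 in VR tumors, against 8.78 to 9.06 in VdR and 8.63 to 9.21 in R tumors, and their part in the VR differences was not tested. R tumors 2 and 5, with high skeletal muscle markers, were the 2 lowest R tumors for 13 of 41 members (31.7%), beside 27.7% of all genes. The 13 included Slc7a11, Hmox1, Srxn1, Txnrd1 and Gclm, and also Gstm2, Gstt1 and Sod3. The same 2 tumors were the highest R tumors for 3 members, Gpx7, Txnrd2 and Txnip (7.32%), beside 18.4% of all genes. Without the 5 tumors of high muscle markers 15 of the 18 calls of VR against R and 6 of the 11 of VdR against R were kept, with 3 VR and 2 VdR tumors left. Gpx7, Gstt1 and Sod1 (0.16, adjusted p = 0.15) were lost in VR, and Gpx1 (0.26, adjusted p = 0.057), Gstm2, Gstt1, Mt2 and Txnrd1 (-0.22, adjusted p = 0.14) in VdR tumors, whereas Slc7a11, Nqo1, Mt1 and Txnip passed in each. By limma none of the 4 calls between VR and VdR passed (5 members higher and 7 lower at an unadjusted p under 0.05). With the adipocyte score as a covariate Sod1 was lost in VR and Gpx1, Mt2, Nqo1 and Txnrd1 in VdR against R, and all 4 calls between VR and VdR held.

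**Figure D4:**
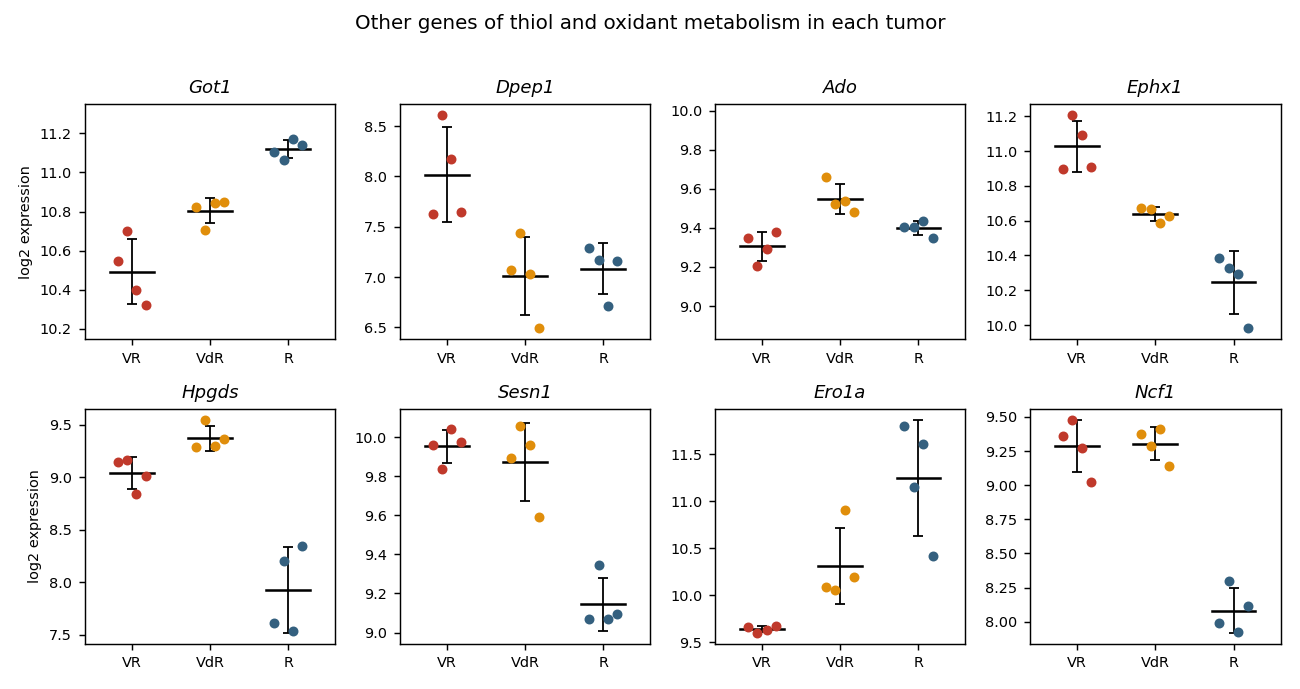
Log2 expression in each tumor (points) of 8 genes from the other lists of thiol and oxidant metabolism, in VR, VdR and R tumors, with the mean as a line and the SD as bars. Got1 and Ero1a means fall and Ephx1 means climb in the order R, VdR, VR, Dpep1 is above both other groups in VR, and Ncf1 and Hpgds are above R in VR and VdR alike.

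The genes around the set were counted from lists of related pathways, also chosen with earlier results of these data known. Of 22 genes of cysteine supply and cysteamine breakdown, 3 were higher and 2 lower in VR against R, 1 and 1 in VdR against R, and 1 and 2 in VR against VdR. In either direction these were 22.7%, 9.09% and 13.6% of the list, beside 21.1%, 9.38% and 3.44% of all genes. Got1, the cytosolic aspartate aminotransferase, had 10.55, 10.70, 10.40 and 10.32 in VR tumors and 10.82, 10.71, 10.84 and 10.85 in VdR tumors, against 11.10, 11.06, 11.17 and 11.14 in R tumors. It passed in all 3 comparisons, at -0.63 for VR against R (adjusted p = 0.00024), -0.31 for VdR against R (adjusted p = 0.021) and -0.31 for VR against VdR (adjusted p = 0.045). Dpep1, a dipeptidase that splits cysteinylglycine, was higher in VR by 0.93 against R (adjusted p = 0.014) and by 1.01 against VdR tumors (adjusted p = 0.040). Ado, the dioxygenase that oxidises cysteamine to hypotaurine, averaged 9.30 ± 0.08 in VR and 9.55 ± 0.08 in VdR tumors, a log2 fold change of -0.24 (adjusted p = 0.036), and 9.40 ± 0.04 in R tumors. Ggt5, which acts on extracellular glutathione conjugates, was higher in VR by 0.39 (adjusted p = 0.0088), and Cndp2, a cytosolic dipeptidase, in VdR by 0.37 (adjusted p = 0.0059), both against R.

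Of 22 other glutathione enzymes 5 were higher and 2 lower in VR, and 3 higher in VdR, against R, and by limma none passed between VR and VdR, where 3 were higher and 3 lower at an unadjusted p under 0.05. In either direction 31.8% and 13.6% passed in VR and VdR against R, beside 21.1% and 9.38% of all genes. Hpgds, the glutathione-dependent prostaglandin D synthase of mast cells and macrophages, rose by 1.12 in VR (adjusted p = 0.00076) and 1.45 in VdR tumors (adjusted p = 0.00023). Gstk1 rose by 0.47 in each (adjusted p = 0.0063 and 0.012), Esd fell by 0.34 in VR (adjusted p = 0.0043) and Gstt3 rose by 0.38 in VdR tumors (adjusted p = 0.0060). Of 26 thioredoxin family genes and methionine sulfoxide reductases 4 were higher and 1 lower in VR, and 3 higher and 2 lower in VdR, against R, with none between VR and VdR (2 higher and 5 lower at an unadjusted p under 0.05, limma). The share was 19.2% in each comparison with R, under the 21.1% of all genes in VR and over the 9.38% in VdR. Ero1a, the oxidase of endoplasmic reticulum disulfides, fell by 1.61 in VR (adjusted p = 0.0014) and 0.94 in VdR tumors (adjusted p = 0.042). Sesn1, a stress-induced sestrin, rose by 0.81 and 0.73 (adjusted p = 0.00025 and 0.00072). Msrb2, a mitochondrial methionine sulfoxide reductase, rose by 0.42 and 0.45 (adjusted p = 0.012 and 0.017), and Sesn2 by 0.37 in VdR tumors (adjusted p = 0.020). Arrdc4, an arrestin related to Txnip and named here after its values were seen, rose by 0.79 in VR (adjusted p = 0.033), with 0.54 in VdR tumors (adjusted p = 0.19).

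Of 26 further Nrf2 targets and partners 4 were higher and 5 lower in VR, and 3 higher in VdR, against R, and 1 was higher in VR against VdR. These were 34.6%, 11.5% and 3.85% of the list, beside 21.1%, 9.38% and 3.44% of all genes. In VR against VdR 5 of the 26 had a positive log2 fold change, beside 43.6% of all genes, and the list's median was -0.08. At an unadjusted p under 0.05 by limma 2 of the 26 were higher and 6 lower there. Ephx1, microsomal epoxide hydrolase, had 10.90, 11.21, 11.09 and 10.91 in VR tumors and 10.67, 10.67, 10.59 and 10.63 in VdR tumors, against 10.39, 10.33, 10.29 and 9.98 in R tumors. It passed in all 3 comparisons, at 0.78 (adjusted p = 0.00023), 0.39 for VdR against R (adjusted p = 0.018) and 0.39 for VR against VdR (adjusted p = 0.041), and so ran opposite to Nqo1. Blvra, biliverdin reductase, rose by 0.43 and 0.50 in VR and VdR against R tumors (adjusted p = 0.0093 and 0.0076). Cbr3, a carbonyl reductase, averaged 7.31 ± 0.17 in VR and 7.38 ± 0.16 in VdR tumors, against 6.82 ± 0.23 in R tumors. Its VdR difference from R was 0.56 (adjusted p = 0.012). Maff, a small Maf protein that pairs with Nrf2, fell by 0.92 in VR tumors (adjusted p = 0.0099).

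Among 20 genes of NADPH supply 1 was higher and 3 lower in VR, and 1 higher in VdR, against R, or 20% and 5%, no more than the 21.1% and 9.38% of all genes. Aldh1l1 and Nadk2 fell by 0.83 and 0.50 in VR tumors (adjusted p = 0.0023 and 0.0027), Me1 rose by 0.38 in VR (adjusted p = 0.0093) and Idh2 by 0.26 in VdR tumors (adjusted p = 0.042). Among 20 selenoprotein genes 4 were higher and 1 lower in VR, and 2 higher in VdR, against R, or 25% and 10%, near those of all genes. Selenop, the selenium carrier, rose by 0.56 and 0.48 (adjusted p = 0.0012 and 0.0047), Selenom by 0.37 and 0.33 (adjusted p = 0.0045 and 0.016). Dio2, a thyroid hormone deiodinase, rose by 1.02 in VR against R (adjusted p = 0.0013) and by 0.88 against VdR tumors (adjusted p = 0.019). Among 21 makers of superoxide and nitric oxide 8 were higher and 1 lower in VR, and 6 higher in VdR, against R, or 42.9% and 28.6%, beside 21.1% and 9.38% of all genes. None of the 21 passed between VR and VdR by limma (2 higher and 3 lower at an unadjusted p under 0.05). Those named by the rule, Ncf1, Ncf4, Hvcn1 and Rac2, belong to the phagocyte oxidase and its partners, with Ncf1 higher by 1.21 and 1.22 (adjusted p = 6.2e-05 and 6.5e-05), Ncf4 by 0.91 and 1.13 (adjusted p = 0.00070 and 0.00027), Hvcn1 by 1.01 in VR (adjusted p = 0.00042) and Rac2 by 1.14 in VdR tumors (adjusted p = 0.00038). The macrophage markers were higher in the same tumors, as given above.

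The 5 calls of these lists between VR and VdR were sensitive to single tumors. Ado was lost on leaving out any 1 of VR tumors 2, 4 or 5 or VdR tumors 1, 2, 4 or 5 (-0.27 to -0.21, adjusted p from 0.0507 to 0.0951), Ephx1 without the same 7 (0.33 to 0.43, adjusted p from 0.0571 to 0.107), and Got1 on leaving out any 1 of VR tumors 1, 4 or 5 or VdR tumors 1, 4 or 5 (-0.33 to -0.26, adjusted p from 0.056 to 0.119). Dpep1 was lost without VR tumor 2 or 4 or VdR tumor 1, 4 or 5 (0.81 to 1.03, adjusted p from 0.0715 to 0.104), and Dio2 without VR tumor 4 (0.88, adjusted p = 0.0595) or VdR tumor 5 (0.83, adjusted p = 0.0528). In VdR against R, Got1 and Msrb2 were lost without VdR tumor 2 or R tumor 1 or 4 (-0.32 to -0.28 and 0.37 to 0.41), Ephx1 without VdR tumor 1 or 2 (0.38 each), Sesn2 without VdR tumor 2 or R tumor 1 or 2 (0.33 to 0.35) and Idh2 without VdR tumor 1 or 2 or R tumor 1, 2 or 4 (0.20 to 0.27), with adjusted p from 0.0506 to 0.117.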

How the data were processed

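Total RNA of 12 tumors was hybridised to mouse Gene 1.0 ST arrays, and the authors deposited log2 values normalised by RMA with the oligo package (background correction, quantile normalisation and probeset summary), so values are relative within the series and hold no absolute level. RMA compresses differences between dim probesets, and the number of arrays limits the precision. Versions of that software are not given in the sources used here. The table held 35556 probesets, of which 21789 named 1 gene symbol in the platform annotation, 1621 several and 12146 none; only the first kind was used, with the probeset of highest mean per gene, giving 19938 genes. A gene was kept if 4 or more arrays exceeded 5.38 (the 25th percentile over the whole table), which left 16573. limma 3.58.1 (lmFit, eBayes) in R 4.3.3 was fitted to the 12 arrays together, each group having its own coefficient, with Benjamini-Hochberg adjustment across every tested gene. The script was tested on simulated data. Alternatives changed the filter, normalisation, probeset choice, moderation, weights, samples and covariates. No scan or hybridisation batch is named in the sources used here. From each related list the text names the 3 genes of lowest adjusted p that passed in each comparison. A gene given for a single comparison can therefore have differed in another as well. Members, lists and tests were chosen with earlier results of these data known. Promoter windows came from RefSeq (GRCm38.p6).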

Additional observations from a re-analysis of the deposited data

Results flagged for a closer look

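In 8 of 123 groups of 4 tumors, 1 per member and group, a single tumor lay far from the other 3 by Dixon's test, and chance alone picks about 1 in 20 groups. Of these, 4 concerned R tumor 5, with Keap1 at 8.36 (next 8.26), Gsr at 11.11 (next 10.57), Gpx1 at 11.76 (next 11.61) and Mgst3 at 9.30 (next 8.54). R tumor 2 was low for Gclc at 9.55 (next 9.77) and for Prdx4 at 10.73 (next 11.05). VdR tumor 4 was low for Gpx8 at 11.96 (next 12.16), and VR tumor 5 for Gstm1 at 9.58 (next 9.62). Both R tumors are among the 5 with high skeletal muscle markers.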

How the results depend on the processing

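With 4 tumors a group, the calls between VR and VdR tumors were sensitive to single tumors. Here 4 of 41 members passed, and leaving out VR tumor 2 or 4 left none by limma (3 or 2 higher and 9 or 10 lower at an unadjusted p under 0.05). Leaving out 1 tumor at a time gave, for VR against R, 5 to 8 members higher and 9 to 14 lower, 1682 to 2306 and 776 to 1311 genes, and 32 to 46 genes of the related lists (44 with all tumors); for VdR against R, 4 to 5 and 2 to 8 members, 684 to 1283 and 248 to 530 genes, and 15 to 25 list genes (22 with all tumors); and for VR against VdR, 0 to 1 and 0 to 3 members, 32 to 320 and 54 to 234 genes, and 0 to 6 list genes (5 with all tumors).

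Array weights gave 2321 genes lower in VR against R, 1757 higher and 838 lower in VdR against R, and 2 members higher, 455 genes higher, 429 lower and 8 list genes in VR against VdR. Fitting only the 2 groups compared left 3 members lower in VdR against R and 3 list genes in VR against VdR. A stricter filter gave 2 members higher, and centring on the array median 152 genes lower, in VR against VdR.

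Adjusting for the macrophage score left 0 members higher and 0 lower, 0 list genes and 3 genes higher in each comparison with R, with 60 genes lower in VR and 45 in VdR tumors. For VR against VdR it left 0 members higher, 1 lower (Srxn1), 1 list gene, 122 genes higher and 106 lower. Signs turned in VR against R for Slc7a11 (0.18), Srxn1 (0.10), Txnrd1 (0.0048), Txnrd2 (-0.12), Dpep1 (-0.51), Esd (0.10), Hpgds (-0.26), Maff (0.54), Msrb2 (-0.059) and Ncf4 (-0.24). In VdR against R they turned for Gclm (0.77), Nqo1 (0.22), Slc7a11 (0.62), Txnip (-0.078), Txnrd1 (0.10), Txnrd2 (-0.10), Hpgds (-0.16), Msrb2 (-0.11), Ncf4 (-0.21), Rac2 (-0.37) and Sesn2 (-0.031). None of these turned values passed. The R scores do not overlap the others, so the fit has little to separate group from score there.

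Both muscle alternatives and the adipocyte one were chosen after seeing the data. The muscle score as a covariate gave 1944 genes lower in VR against R. Without the 5 tumors of high muscle markers 2 members were higher in VdR against R (Gpx1, Gstm2 and Gstt1 no longer passed) with 12 list genes, and 0 members, 0 list genes, 5 genes higher and 2 lower passed in VR against VdR, with fewer tumors in each group. With the adipocyte score as a covariate 3 members and 260 genes were lower in VdR against R, and 3 list genes passed in VR against VdR (Dpep1, Ephx1 and Got1 lost, adjusted p from 0.051 to 0.056; in VdR against R, Got1, Idh2 and Sesn2 were lost). Among the members in VdR against R, centring cost the calls of Gclm, Gpx1 and Txnrd1, the fit of 2 groups those and Nqo1, trend and robust moderation Mt2 and Txnrd1, and no filter Gclm (adjusted p from 0.052 to 0.080). Sod1 in VR against R was lost in the 2-group fit (0.16, adjusted p = 0.055).

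Tumors of the same number in different groups deviated together in part (r of -0.15 to 0.40 over 12 pairs, median 0.14, 8 over 0.1). For tumors of other numbers in different groups, r was -0.48 to 0.32 over 36 pairs (median -0.07, 11 over 0.1). The sources used here do not say that the numbers mark a shared batch, and this was not tested. With the replicate number as a block, 8 members were higher and 12 lower in VR against R, 5 and 5 in VdR against R (Txnrd1 at -0.18, adjusted p = 0.0612) and 1 and 3 in VR against VdR; among the list genes Got1 was lost between VR and VdR (-0.31, adjusted p = 0.0699) and Idh2 in VdR against R (0.26, adjusted p = 0.0613).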
